A study of Mus musculus with 6 samples.

Results

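The genes described here are 10 genes commonly used to place macrophages between classical (M1) and alternative (M2) activation. They are 5 M1 genes, Tnf, Il1b, Il6, Nos2 and Il12b, and 5 M2 genes, Il10, Arg1, Mrc1, Retnla and Tgfb1. They were taken by name out of the 54532 genes listed, whatever their values, and all 10 were found. RNA of sorted mouse cells was sequenced in 6 libraries, with a single library for each condition, and no value can be checked against a replicate. All mice were C57BL/6. WT macrophages came from young adult mice without leukemia that were given PBS, and WT/FE macrophages from mice without leukemia that received repeated intraperitoneal iron dextran. MA9 and MA9/FE macrophages came from mice that carried transplanted leukemia cells with the MLL-AF9 fusion gene and were given PBS or iron dextran, and MA9 and MA9/FE leukemia cells came from the BM of such mice. The leukemia cells were made from normal c-kit+ BM cells with a retrovirus that also encodes GFP, and the macrophages were sorted by flow cytometry as GFP- cells with little Gr-1, with F4/80 and with intermediate CD115. On the origin of the macrophages the labels (spleen) and the study's methods (BM) differ, and the values are those of the sequenced libraries, whichever organ they came from.

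Macrophages that meet interferon gamma and bacterial products make TNF, interleukin 1 beta, interleukin 6 and interleukin 12, and in mice they make nitric oxide from arginine with NOS2. Macrophages that meet interleukin 4 or interleukin 13 take the alternative course, in which ARG1 turns arginine into ornithine and the mannose receptor MRC1 and the resistin-like protein RETNLA are displayed or secreted. Interleukin 10 and TGF beta 1 damp inflammation and are counted with M2 genes, although many other cells make them. Macrophages also recycle iron from old red cells, and the study asked how iron overload and leukemia shift macrophages between these states.

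The M1 cytokine genes did not move together, and the stretches of 250 bases before their start sites are shown because 3 of them, Tnf, Il6 and Il12b, were lower in macrophages of MA9/FE mice than in those of MA9 mice, whereas Il1b was higher. The sequences are from RefSeq on build GRCm38.p6 and are written 5′ to 3′ on the strand of the gene: chr17:35202008-35202257 (minus strand) for Tnf, chr5:30012864-30013113 (plus) for Il6, chr11:44399813-44400062 (plus) for Il12b and chr2:129371140-129371389 (minus) for Il1b. Capitals mark every match, on either strand, to the TATA box (TATAAA), to AP-1 (TGANTCA), to the interferon-activated GAS element (TTCNNNGAA) or to the kappaB motif that NF-kB binds. No matches overlapped.
Tnf: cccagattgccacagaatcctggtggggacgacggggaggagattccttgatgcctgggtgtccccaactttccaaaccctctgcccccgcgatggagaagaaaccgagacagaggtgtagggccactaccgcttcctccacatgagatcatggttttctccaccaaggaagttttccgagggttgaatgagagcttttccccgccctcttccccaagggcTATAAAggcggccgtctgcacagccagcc
Il6: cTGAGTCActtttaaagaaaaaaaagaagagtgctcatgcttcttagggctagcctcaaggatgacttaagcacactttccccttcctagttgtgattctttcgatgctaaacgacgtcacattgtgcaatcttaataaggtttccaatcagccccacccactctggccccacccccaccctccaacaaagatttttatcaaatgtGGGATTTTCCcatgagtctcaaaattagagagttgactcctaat
Il12b: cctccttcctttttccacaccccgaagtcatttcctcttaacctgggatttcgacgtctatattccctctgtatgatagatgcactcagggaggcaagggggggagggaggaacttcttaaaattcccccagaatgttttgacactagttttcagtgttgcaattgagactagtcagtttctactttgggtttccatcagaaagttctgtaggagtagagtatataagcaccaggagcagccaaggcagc
Il1b: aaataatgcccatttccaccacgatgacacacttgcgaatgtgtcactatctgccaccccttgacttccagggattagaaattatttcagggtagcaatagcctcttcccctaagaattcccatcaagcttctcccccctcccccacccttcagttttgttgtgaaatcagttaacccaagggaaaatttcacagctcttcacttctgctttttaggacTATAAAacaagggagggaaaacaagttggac
The TATA box began 29 bases before the start in Tnf and 31 bases before it in Il1b, and no copy was found in the windows of Il6 and Il12b. Of 32851 windows of 250 bases before mouse start sites, 12.4% held TATAAA. Il6 held a kappaB motif, GGGATTTTCC, 44 bases before its start and an AP-1 motif, TGAGTCA, 249 bases before it, motifs found in 7.25% and 6.75% of all windows. GAS was in 7.02% of all windows and in none of these 4. A match is a description of the letters only. Entries for 7 of the 10 members were in the RefSeq table, and Nos2, Il10 and Arg1 had none.

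Primers for real-time PCR are listed for 8 of the 10 members, all but Retnla and Tgfb1, and each was matched to the GENCODE M21 transcripts. The pairs of the members that stand out below are shown, together with those listed for Tnf and Arg1, because these share a sequence.
Mrc1 forward: cctgaacagcaacttgacca
Mrc1 reverse: gcaatggccatagaaaggaa
Il12b forward: atgtggaatggcgtctctgtct
Il12b reverse: tgggcgggtctggtttga
Il10 forward: ccagagccacatgctccta
Il10 reverse: aggggagaaatcgatgacag
Arg1 forward: caaccagctctgggaatctg
Arg1 reverse: aatcggccttttcttccttc
Tnf forward, as listed: caaccagctctgggaatctg
Tnf reverse: ggcaccactagttggttgtctttg
In 7 of the 8 pairs both primers matched a transcript of the named gene, with products of 119 to 287 bases. The forward primer listed for Tnf was identical to that listed for Arg1 and matched only Arg1 transcripts, whereas its reverse primer matched Tnf. Outside the members, the reverse primer of Arg1 is also listed for Ccl17, and Mmp9 and Cxcl11 are listed with the same pair. Which forward primer was used for Tnf at the bench is not given in the sources used here, and no real-time PCR value was entered into the levels below.

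Levels are given as FPKM, reads scaled to exon length and to library size, so that levels of different genes can be set side by side. Multiplied by the exon length, the FPKM of each member in each library came out as a whole number of reads, at a recovered depth of 16085346 to 19518359 reads per library. Intervals are 95% intervals for counting error only, and the difference between mice is not in them. Comparisons of 2 libraries were scaled by the trimmed mean of M values, and the log2 fold change was taken on log2(FPKM + 1), a scale that compresses the differences of weakly expressed genes. A gene was compared where at least 10 reads were found in at least 1 of the pair, and a fold of at least 2 on that scale was counted, without a test. A ratio of scaled FPKM with its counting interval is given where reads are few.

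Within the macrophage libraries the 10 genes ranged from 0 reads to 67.1 FPKM. Tgfb1, the gene of a growth factor that most blood cells make, was the highest in 3 of the 4, at 51.4 to 67.1 FPKM, and Il1b was above it only in MA9/FE macrophages, at 62.1 against 58.1 FPKM. Tnf (16.3 to 32.0 FPKM) and Mrc1 (7.34 to 19.4 FPKM) followed. Il12b (2.30 to 10.2 FPKM) and Il10 (0.626 to 3.46 FPKM) were at intermediate levels, and Il6 and Arg1 stayed at or below 1.55 and 1.11 FPKM. The enzyme and secreted protein that define the 2 states most sharply in mice were close to absent. Nos2 had 3 reads in WT macrophages, 2 in WT/FE macrophages and 0 in each macrophage library from leukemic mice. In MA9 and MA9/FE macrophages 3 reads are worth 0.0400 and 0.0423 FPKM, and the counting intervals of 0 reads reach 0.0492 and 0.0520 FPKM. Retnla had 3 and 1 reads in WT and WT/FE, and 4 and 0 in MA9 and MA9/FE macrophages. No comparison of Nos2 or Retnla was made at this depth.

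**Figure D1:**
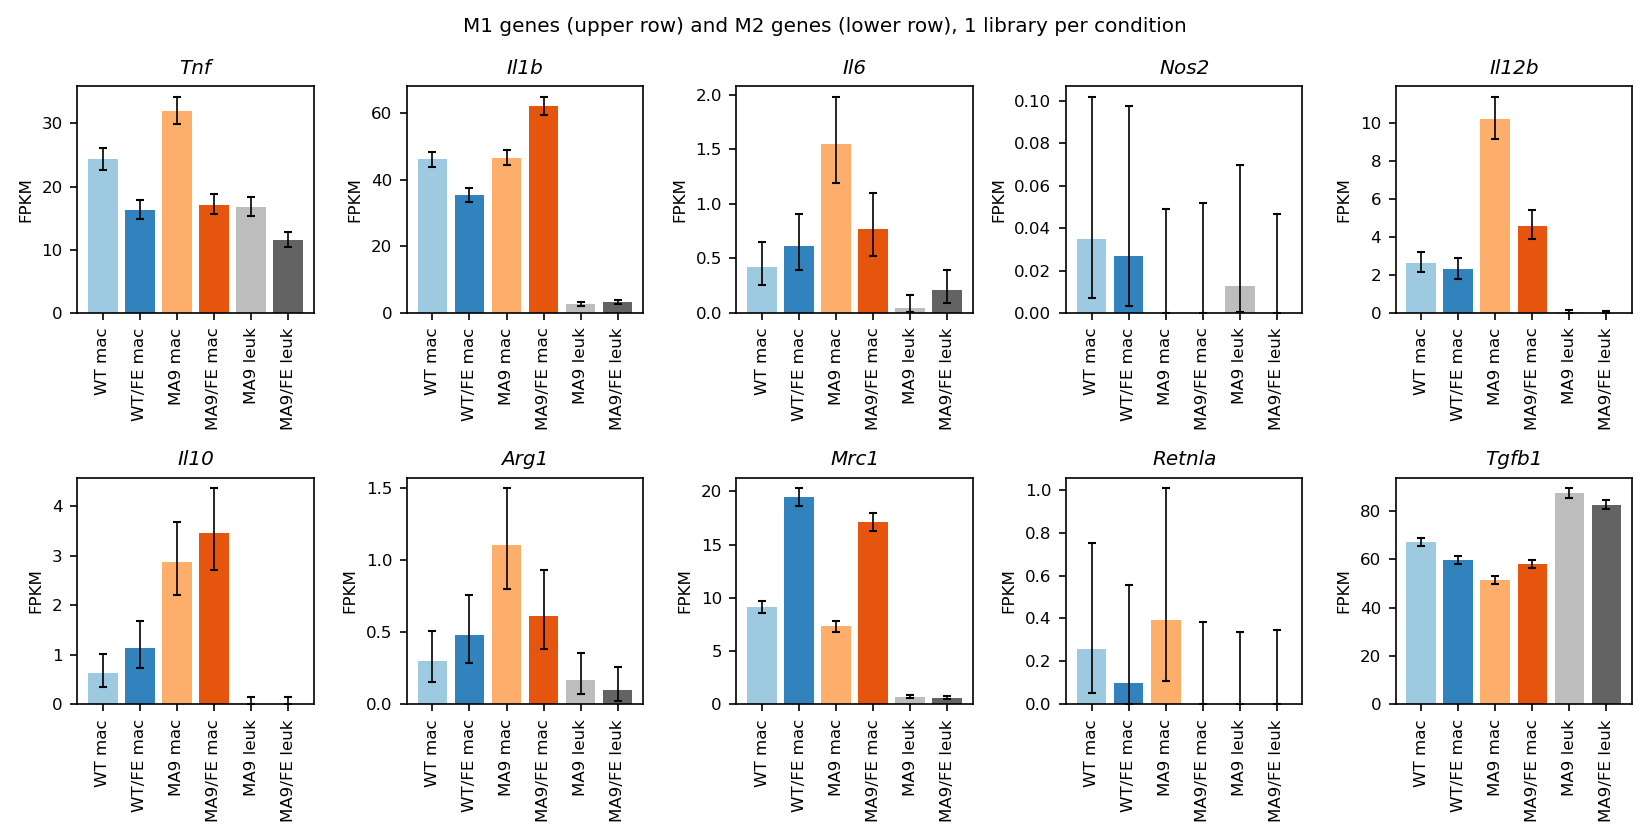
FPKM of the 5 M1 genes (upper row) and the 5 M2 genes (lower row) in the 6 libraries, with exact 95% counting intervals as error bars and a separate linear axis from 0 for each gene ("mac", macrophages; "leuk", leukemia cells). Mrc1 was high in both macrophage libraries from iron-treated mice, Il12b was highest in MA9 macrophages at 10.2 FPKM, and Tgfb1 was the only member that was highest in the leukemia cells.

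The gate was checked against marker lists. Markers of macrophages were found in each of the 4 macrophage libraries: Adgre1, which encodes F4/80, was at 32.2 to 54.5 FPKM and Csf1r, which encodes CD115, at 56.6 to 111 FPKM. The summed FPKM of 20 macrophage marker genes was 595 and 1018 in WT and WT/FE macrophages and 586 and 1296 in those of leukemic mice without and with iron. The summed FPKM of 10 B cell marker genes was higher in each of them, at 2286, 2156, 1277 and 2209, and none of these 10 genes was at 0. The sum of 16 neutrophil markers was 21.4 and 22.3 in WT and WT/FE, where 3 of the 16, Ly6g among them, were at 0, against 1939 and 991 in MA9 and MA9/FE macrophages. It was higher still in MA9 and MA9/FE leukemia cells, at 6284 and 4956. In bulk RNA, fewer cells of a type and less RNA per cell cannot be told apart, and the same holds for each level of a member.

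Iron was compared first in mice without leukemia. Mrc1 was higher in WT/FE than in WT macrophages, and no other member that could be compared had a fold of at least 2. Of the 10 members, 8 had enough reads to be compared, and Mrc1 was the 1 member with a fold of at least 2, where 1.27% of all 16737 genes compared differed as much. Mrc1 was at 9.13 FPKM (1135 reads) in WT and 19.4 FPKM (2080 reads) in WT/FE macrophages, a log2 fold change of 1.01 and a ratio of 2.12 (counting interval 1.97 to 2.28). With the trend of the fold on exon length removed, its log2 fold change was 0.9997 and 0 members passed. Tnf, which encodes the founding cytokine of its family, was lower with iron, at 16.3 against 24.3 FPKM (ratio 0.669, 0.594 to 0.752). Il1b was also lower, at 35.3 against 46.1 FPKM (ratio 0.762, 0.706 to 0.822). Tgfb1 differed least of those whose interval leaves out 1, at 59.5 against 67.1 FPKM (ratio 0.882, 0.850 to 0.915). The intervals of Il6, Il12b, Il10 and Arg1 all held 1, on 13 to 101 reads per library.

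In mice with leukemia the same comparison again had Mrc1 as the 1 member of 8 with a fold of at least 2, against 2.46% of 16496 genes. Mrc1 was at 7.34 FPKM (795 reads) in MA9 and 17.1 FPKM (1754 reads) in MA9/FE macrophages, a log2 fold change of 1.15 and a ratio of 2.39 (2.198 to 2.604). Il12b, which encodes the subunit shared by interleukins 12 and 23, went the other way and stayed just inside the threshold, at 10.2 FPKM (342 reads) in MA9 and 4.58 FPKM (145 reads) in MA9/FE macrophages (log2 fold change -0.98, ratio 0.460, 0.376 to 0.560). Its fold passed 2 with the deposited FPKM unscaled, with median-of-ratios size factors, with a pseudocount of 0.1 and with the length trend removed. Tnf was at 32.0 in MA9 and 17.1 FPKM in MA9/FE macrophages (log2 fold change -0.83, ratio 0.549, 0.489 to 0.615). Il6, a cytokine of the acute phase, had 64 reads in MA9 and 30 in MA9/FE macrophages (ratio 0.508, 0.318 to 0.796), and Arg1 had 42 and 22 reads (ratio 0.568, 0.323 to 0.973). Il1b was higher with iron here, at 62.1 against 46.7 FPKM (ratio 1.36, 1.27 to 1.46), and so was Tgfb1, at 58.1 against 51.4 FPKM (ratio 1.16, 1.11 to 1.21). The M1 genes thus did not share a direction, and neither did the M2 genes, since Arg1 was lower and Mrc1 higher. Il10 had 64 and 73 reads, and its interval held 1. Markers of several cell types also differed between MA9 and MA9/FE macrophages. Of 16 neutrophil markers 15 had a lower level with iron, 3 by at least 2-fold, with a median log2 fold change of -0.89, and the sum of 8 mast cell and basophil markers was 79.0 against 165 FPKM. All 10 B cell markers were higher, with a median of 0.57. The sum of 10 erythroid genes was 517 against 297 FPKM, but this list split. In it 6 of 10 genes were higher, 3 by at least 2-fold, with a median of 0.30. Ermap was lower by at least 2-fold, at 5.79 against 14.6 FPKM. The part of these cell types in the levels of Tnf, Il6 and Il12b was not tested.

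The difference between the responses to iron in MA9 and in WT macrophages was taken from the reads, with approximate intervals. It was 0.84 on the log2 scale for Il1b (counting interval 0.69 to 0.99) and 0.39 for Tgfb1 (0.31 to 0.47), both of which were lower with iron without leukemia and higher with it. It was -0.92 for Il12b (-1.43 to -0.41) and -0.29 for Tnf (-0.52 to -0.05), whose ratios were lower with leukemia than without, and 0.17 for Mrc1 (0.01 to 0.33). It was furthest from 0 for Il6 (-1.51, -2.56 to -0.45) and Arg1 (-1.50, -2.77 to -0.23), which have few reads and wide intervals. For Il10 the interval held 0 (-0.55, -1.57 to 0.48). With 1 library per condition these intervals say nothing about the spread between mice.

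**Figure D2:**
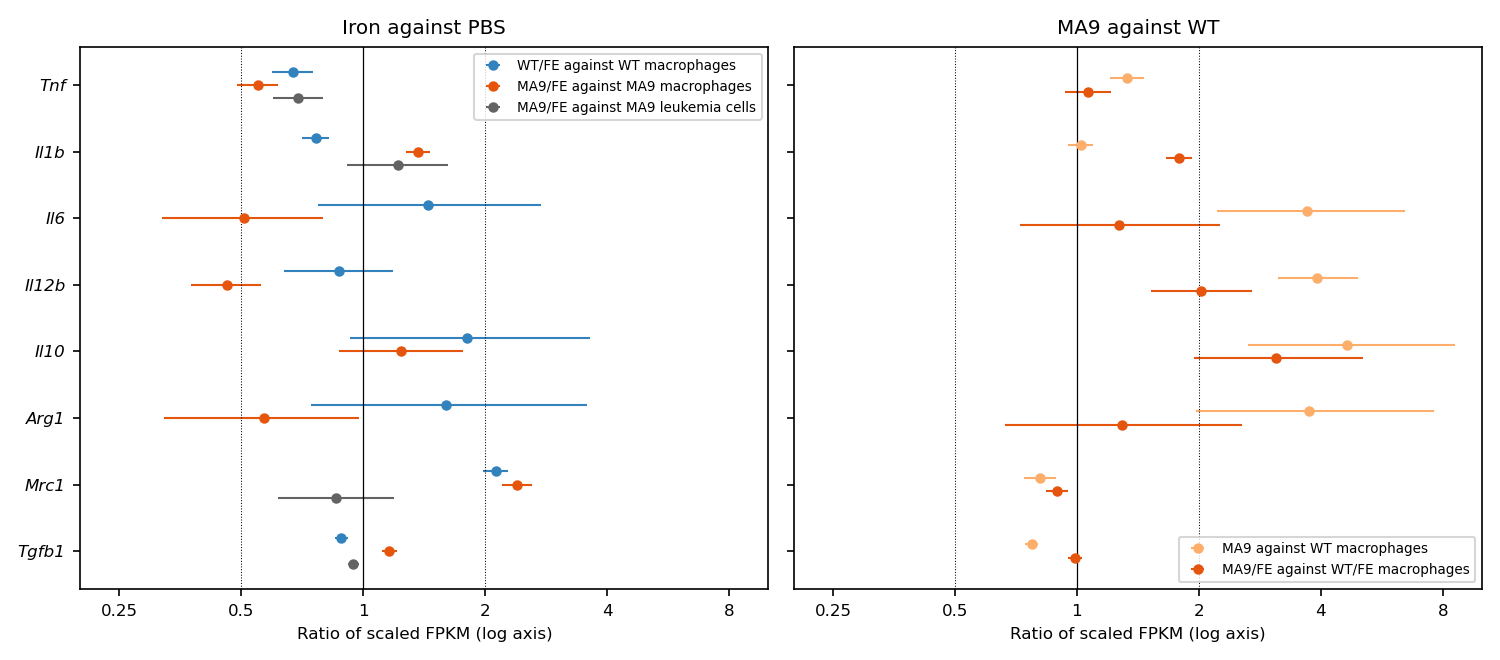
Ratio of scaled FPKM for the members with at least 10 reads in at least 1 library of the pair, iron against PBS (left) and MA9 against WT (right), on a log axis, with 95% counting intervals as bars and dotted lines at ratios of 0.5 and 2. Tnf was below 1 in all 3 iron comparisons, Mrc1 was above 2 in both macrophage comparisons and not in leukemia cells, and Il1b and Tgfb1 lay on opposite sides of 1 in WT and MA9 macrophages.

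The macrophage markers moved with Mrc1. Of these 20 genes, 19 could be compared, and all 19 were higher with iron in both comparisons. In WT/FE against WT macrophages 5 of them were higher by at least 2-fold, with a median log2 fold change of 0.90 beside -0.01 over all genes compared. In MA9/FE against MA9 macrophages 9 were, with a median of 0.96 beside 0.01. They included Cd5l, an antiapoptotic secreted protein of tissue macrophages, at 44.1 in WT/FE against 17.8 FPKM in WT, and Slc40a1, the iron exporter ferroportin, at 40.8 against 18.8 FPKM. The fold of Mrc1 was exceeded by 5 of the 20 markers in WT/FE against WT and by 6 of the 20 in MA9/FE against MA9 macrophages. Set against the summed FPKM of the markers, Mrc1 was 1.53 per 100 FPKM of markers in WT and 1.91 in WT/FE, a ratio of 1.24, and 1.25 in MA9 and 1.32 in MA9/FE, a ratio of 1.06. On this scale, chosen after the data were seen, the marker sum divides every gene alike, which moved the median log2 fold change of all genes to -0.61 in WT/FE against WT and to -0.86 in MA9/FE against MA9 macrophages, and Mrc1 no longer had a fold of at least 2 in either. Tnf was lower by 2.55-fold in WT/FE than in WT and by 4.13-fold in MA9/FE than in MA9 macrophages, and Il12b by 1.96-fold and 4.93-fold. Some of these markers, Slc40a1 and Hmox1 among them, answer to iron themselves, so the sum is not a count of macrophages.

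**Figure D3:**
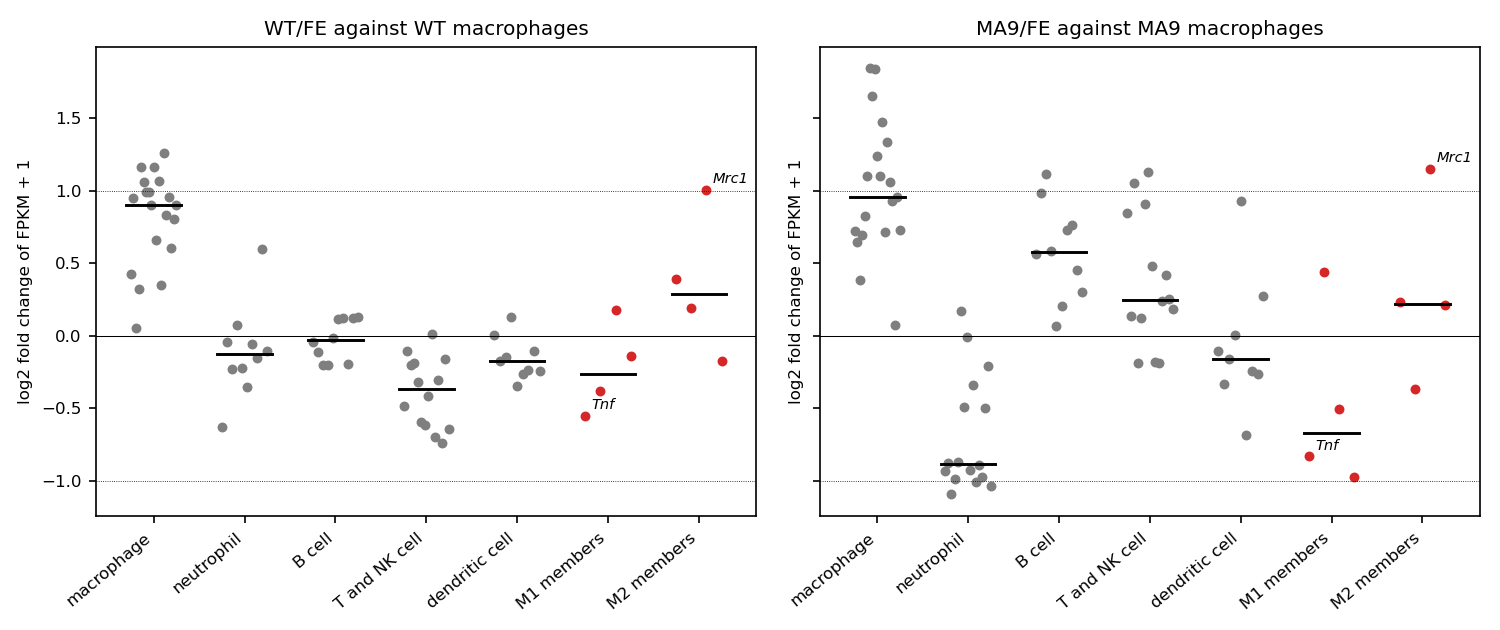
Log2 fold changes of FPKM + 1 with iron in WT (left) and MA9 (right) macrophages for each gene with at least 10 reads, for markers of 5 cell types (grey) and for the M1 and M2 members (red), with lists' medians as black lines and dotted lines at a fold of 2. Mrc1 lay within the range of the macrophage markers on both sides, and Tnf lay below every macrophage marker.

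In the leukemia cells 4 members, Tnf, Il1b, Mrc1 and Tgfb1, had enough reads to be compared, and 0 had a fold of at least 2 with iron, against 0.864% of 15396 genes. Tnf was at 16.8 FPKM (500 reads) in MA9 and 11.6 FPKM (339 reads) in MA9/FE leukemia cells, a ratio of 0.689 (0.599 to 0.793). Mrc1 was at 0.718 and 0.615 FPKM, and its interval held 1 (ratio 0.857, 0.615 to 1.19). Tnf was thus the member that was lower with iron in all 3 pairs of libraries, with log2 fold changes of -0.55, -0.83 and -0.50.

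Leukemia was compared at each level of iron. Without iron, Il12b and Il10 were the 2 of 8 members with a fold of at least 2 between MA9 and WT macrophages, where 4.70% of 16910 genes differed as much. Il12b was at 2.63 FPKM (101 reads) in WT and 10.2 FPKM (342 reads) in MA9 macrophages, a log2 fold change of 1.64 and a ratio of 3.92 (3.13 to 4.95). Il10, the main cytokine that turns inflammation down, was at 0.626 FPKM (16 reads) in WT and 2.87 FPKM (64 reads) in MA9 macrophages, a log2 fold change of 1.26 and a ratio of 4.64 (2.65 to 8.59). An M1 and an M2 gene were thus both higher with leukemia. Il6 (20 and 64 reads) and Arg1 (13 and 42 reads) had ratios of 3.71 (2.21 to 6.47) and 3.74 (1.97 to 7.60) but log2 fold changes of 0.85 and 0.70, since their FPKM are close to the pseudocount of 1. With a pseudocount of 0.1 they passed as well, and 4 members then had a fold of at least 2, as did 11.7% of all genes. Tnf was at 32.0 against 24.3 FPKM, Tgfb1 was lower in MA9 at 51.4 against 67.1 FPKM, and Il1b hardly differed, with a ratio of 1.02 (0.953 to 1.10).

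Under iron, Il10 was the 1 of 8 members with a fold of at least 2 between MA9/FE and WT/FE macrophages, against 4.56% of 16554 genes. Il10 was at 1.14 FPKM (25 reads) in WT/FE and 3.46 FPKM (73 reads) in MA9/FE macrophages, a log2 fold change of 1.08 and a ratio of 3.10 (1.94 to 5.09). Il12b was at 2.30 against 4.58 FPKM (ratio 2.02, 1.52 to 2.71) with a log2 fold change of 0.77. Il1b was at 35.3 FPKM in WT/FE and 62.1 FPKM in MA9/FE macrophages (ratio 1.79, 1.66 to 1.92). Tnf, Il6, Arg1 and Tgfb1 had intervals that held 1. With the length trend removed, 0 members passed here, and the log2 fold change of Il10 was 0.86.

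Markers of other cells moved with leukemia as well. The plasma cell list summed to 1044 and 1018 FPKM in WT and WT/FE and to 2117 and 2602 FPKM in MA9 and MA9/FE macrophages, and plasma cells can make interleukin 10. The dendritic cell list, whose cells are a usual source of interleukin 12, summed to 480, 433, 391 and 349 FPKM, a lower sum in both libraries with leukemia. This list split, since 3 of its 9 genes, Ccr7 among them, were higher with leukemia at each level of iron. Cd209a was the 1 gene of it that was lower by at least 2-fold without iron, and 0 were under iron. Of 16 neutrophil markers 12 were higher by at least 2-fold in MA9 than in WT macrophages, as were 7 of 8 mast cell and basophil markers and 9 of 10 erythroid genes. The neutrophil list was highest in the leukemia cells themselves, at 6284 and 4956 FPKM in MA9 and MA9/FE. The part of all these cells in the levels of Il10 and Il12b was not tested.

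The tests that the libraries allow rest on the assumption that the effects of iron and of leukemia add. In a limma fit over the 4 macrophage libraries, which leaves 1 residual degree of freedom, Il10 passed for leukemia, with a change of 1.17 ± 0.18 (SE) on the log2 scale and an adjusted p of 0.0245, beside 2.64% of 16253 genes. It was not called by limma with no minimum of reads, where 0 genes were, or with leukemia as the only factor, where 17 genes were. Il12b, at 1.21 ± 0.24, just missed it in limma with an adjusted p of 0.0520. For iron, limma called 0 of the 8 members and 0.0123% of the genes, with 3 members, Mrc1, Tnf and Il12b, at an unadjusted p under 0.05. Mrc1 changed by 1.07 ± 0.18 with a limma p of 0.000492 and an adjusted p of 0.208, and Tnf by -0.71 ± 0.18 with an adjusted p of 0.607. With the prior spread as a trend on the mean level, an alternative added after the data were seen, limma also called Il12b for leukemia and Mrc1 for iron. In the limma fit of iron over the 3 pairs of libraries 0 of 8 members and 0.00% of 17132 genes were called. Tnf, at -0.62 ± 0.11, was the 1 member with an unadjusted limma p under 0.05, and its adjusted p was 0.994. These p-values measure the spread between single libraries around an additive pattern and not the spread between mice.

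The leukemia cells carried little of most members. Against MA9 macrophages, 5 of 8 members were lower by at least 2-fold in MA9 leukemia cells, Il1b, Il6, Il12b, Il10 and Mrc1, beside 20.0% of 17023 genes in either direction. Il1b was at 2.66 against 46.7 FPKM (ratio 0.0556, 0.0446 to 0.0687) and Mrc1 at 0.718 against 7.34 FPKM (ratio 0.0956, 0.0753 to 0.120). Il12b had 1 read in MA9 leukemia cells (ratio 0.00268, 6.8e-05 to 0.0150), and Il6 had 2 (ratio 0.0286, 0.0034 to 0.108). Arg1 had 7 reads against 42 (ratio 0.153, 0.0578 to 0.343) but did not pass, with a log2 fold change of -0.86. Il10 had 0 reads, which makes it 23.3-fold lower on a floor of 3 reads in that library, and at least 18.4-fold lower by the counting interval. Tnf, at 16.8 against 32.0 FPKM, came closest to its macrophage level among the M1 genes compared, and was still lower (ratio 0.513, 0.459 to 0.573). Tgfb1 was higher in them, at 87.4 FPKM against 51.4 FPKM (ratio 1.66, 1.60 to 1.73).

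Under iron, Il1b, Il12b, Il10 and Mrc1 were lower by at least 2-fold in MA9/FE leukemia cells than in MA9/FE macrophages, 4 of 8 members beside 22.7% of 16821 genes. Il6 did not pass here, with 9 reads in the leukemia cells and 30 in the macrophages (log2 fold change -0.56, ratio 0.265, 0.111 to 0.572). Arg1, with 4 and 22 reads, did not pass either (ratio 0.161, 0.0402 to 0.473). Both intervals lay below 1. Il12b and Il10 were both at 0 reads, 54.7-fold and 27.5-fold lower on the floor of 3 reads. By the counting intervals they were at least 43.9-fold and at least 21.8-fold lower. Mrc1 was at 0.615 against 17.1 FPKM (ratio 0.0352, 0.0274 to 0.0448). Tgfb1 was again higher, at 82.6 against 58.1 FPKM (ratio 1.39, 1.34 to 1.45), and its levels fell into a clear order, with both leukemia cell libraries above all 4 macrophage libraries.

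In the order of the 6 libraries, several neighbours did not differ beyond counting error. For Tnf these were MA9/FE macrophages, MA9 leukemia cells and WT/FE macrophages, at 17.1, 16.8 and 16.3 FPKM. For Il1b they were MA9 and WT macrophages and the 2 leukemia cell libraries. For Il12b they were WT and WT/FE macrophages and again the 2 leukemia cell libraries. For Mrc1 only the 2 leukemia cell libraries could not be set in order, so that WT/FE stood above MA9/FE, MA9/FE above WT and WT above MA9 macrophages. For Tgfb1 only WT/FE and MA9/FE macrophages could not.

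The levels were also put into the form that the study used for its real-time PCR, in which WT macrophages are 0 and each gene adds to an M1 value or an M2 value according to its direction. The genes are not the same, since the study's PCR panel of 12 lacks Retnla and Tgfb1 and also holds Cxcl11, Mmp9, Csf1 and Ccl17. Over the 10 genes on log2(FPKM + 1), the M2 value minus the M1 value was 2.12 in WT/FE macrophages, -1.39 in MA9 macrophages and 1.24 in MA9/FE macrophages. With a pseudocount of 0.1 it was 2.16, -0.15 and 0.99. These sums take no account of counting error, and the pseudocount of 1 shrinks the part of weakly expressed genes. Without Nos2 and Retnla, with a pseudocount of 1, the differences were 2.30, -1.59 and 1.52. On its own plane the study placed WT/FE and MA9 macrophages on the M1 side and MA9/FE macrophages on the M2 side. WT/FE macrophages thus lay on the M2 side here and on the M1 side there. At a pseudocount of 1, the largest part of the values in WT/FE came from Mrc1 (1.01) and from the lower Tnf (-0.55). In MA9 it came from Il12b (1.64) and Il10 (1.26), which pull to opposite sides. In MA9/FE it came from Il10 (1.47), ahead of Mrc1 (0.86) and of Il12b (0.64), which pulls to the M1 side.

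**Figure D4:**
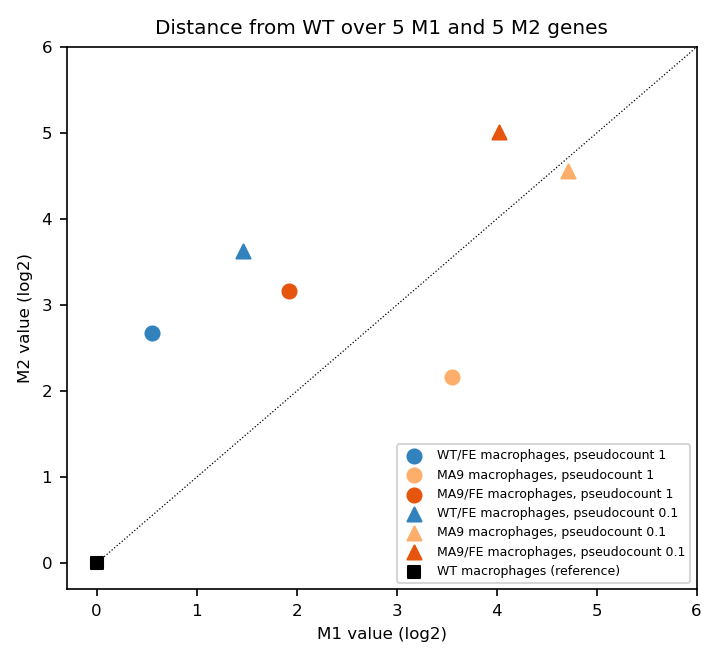
M1 value against M2 value of the 3 other macrophage libraries relative to WT macrophages (black square at 0), as sums of log2 fold changes over 5 M1 and 5 M2 genes, for pseudocounts of 1 (circles) and 0.1 (triangles), with equal values on the dotted line. WT/FE and MA9/FE macrophages lay above the line in both, and MA9 macrophages lay below it by 1.39 with a pseudocount of 1 and by 0.15 with 0.1.

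Other genes of the 2 states were described from lists of their names. Of 25 further M1 genes, 22 could be compared in WT/FE against WT macrophages and 0 had a fold of at least 2. In MA9/FE against MA9 macrophages 2 of 23 were higher and 0 lower. These were Marco, a scavenger receptor of marginal zone macrophages, at 11.2 in MA9/FE against 2.2 FPKM in MA9, and Il18, a cytokine cut by the inflammasome as interleukin 1 beta is, at 28.9 against 12.4 FPKM. With leukemia 1 of 23 was higher without iron, Fpr2, a receptor for formylated peptides, at 7.53 in MA9 against 2.10 FPKM in WT, and 0 of 22 under iron. Of 25 further M2 genes, 0 of 24 had a fold of at least 2 with iron in either macrophage comparison. Cd163, which is also on the macrophage list, stayed just inside, at 9.18 in WT/FE against 4.22 FPKM in WT (log2 fold change 0.96). In MA9/FE against MA9 macrophages it was at 7.97 against 3.80 FPKM (0.93). Pparg (0.96 in WT/FE against WT) and Chil3 (-0.98 in MA9/FE against MA9) were as close. With iron, 13 of 24 were higher to any degree without leukemia and 12 of 24 with it. With leukemia 1 of the further M2 genes had such a fold. This was Chil3, a chitinase-like protein that neutrophils and their precursors also make. It was at 88.9 in MA9 against 0.471 FPKM in WT and at 43.4 in MA9/FE against 1.28 FPKM in WT/FE. In MA9 and MA9/FE leukemia cells Chil3 was at 170 and 226 FPKM. The leukemia cells differed more. Of the further M1 genes 15 of 23 were lower and 2 higher in MA9 leukemia cells than in MA9 macrophages, Ccl5 (1.20 against 210 FPKM) and Ccr7 (1.81 against 142 FPKM) by most, whereas the further M2 genes split, 6 higher and 7 lower of 24, with Mgl2, a C-type lectin, higher (38.2 against 1.49 FPKM) and Irf4 lower (1.29 against 54.2 FPKM).

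Of the other genes in the study's PCR panels, Mmp9, a gelatinase, was at 3.46 to 4.75 FPKM in the macrophage libraries and at 13.3 and 7.95 FPKM in MA9 and MA9/FE leukemia cells. Csf1, the growth factor of macrophages, was at 3.13 FPKM in MA9 and 1.79 FPKM in MA9/FE macrophages, and at 1.82 and 1.90 FPKM in WT and WT/FE macrophages. Cxcl11 had at most 6 reads in any library and Ccl17 at most 12.

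Of 19 receptor chains for the members and for interferon gamma and interleukins 4 and 13, 0 had a fold of at least 2 between WT/FE and WT macrophages, and 1 was lower in MA9/FE than in MA9 macrophages. This was Il1r2, the decoy receptor of interleukin 1, at 1.27 against 3.73 FPKM, and it is also on the neutrophil list, of which 3 of 16 genes, Il1r2 included, were lower by at least 2-fold in the same comparison. With leukemia 0 of 19 passed at either level of iron. In MA9 leukemia cells 6 of the 19 were lower and 1 higher than in MA9 macrophages, with Il10ra, the ligand-binding chain for interleukin 10, at 16.6 against 105 FPKM and Tgfbr2 at 2.31 against 20.96 FPKM. Among 18 genes that process cytokines or pair with them, Thbs1, which activates latent TGF beta, was at 0.202 in WT, 1.77 in MA9 and 0.256 FPKM in MA9/FE macrophages and passed the fold in both comparisons with MA9. It was at 8.62 and 3.43 FPKM in MA9 and MA9/FE leukemia cells. Il12a, which pairs with Il12b to make interleukin 12, went against its partner, at 13.6 in MA9 leukemia cells and 4.67 FPKM in MA9 macrophages.

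In the arginine pathway, which NOS2 and ARG1 share, 0 of 13 genes differed by at least 2-fold with iron in either macrophage comparison. With leukemia 2 were higher at both levels of iron. Odc1, which turns ornithine into putrescine, was at 29.3 and 27.6 FPKM in WT and WT/FE and at 64.5 and 59.4 FPKM in MA9 and MA9/FE macrophages. Srm, which makes spermidine from putrescine, was at 26.7, 23.7, 64.8 and 48.8 FPKM in the same order. Arg1 itself had 13, 18, 42 and 22 reads in the same order. Of 17 genes of NF-kB and its feedback, 0 had a fold of at least 2 with iron in the macrophages, and Atf3 was higher in MA9/FE than in WT/FE macrophages (76.3 against 32.5 FPKM). In MA9 leukemia cells 12 of the 17 were lower than in MA9 macrophages, with Relb at 2.41 against 77.4 FPKM, and 11 of 17 were lower under iron.

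Of 23 transcription factors that steer polarization, Klf4 was the 1 with a fold of at least 2 under iron in leukemia cells, at 54.5 against 24.6 FPKM. Of 3 relatives of Retnla, Retnlg, a neutrophil product, was at 0.432 and 0.201 FPKM in WT and WT/FE and at 5.85 and 3.77 FPKM in MA9 and MA9/FE macrophages. Among 5 relatives of Tgfb1, Gdf15, a stress-induced member of the superfamily, was higher with leukemia, at 4.61 in MA9 against 1.41 FPKM in WT and at 8.73 in MA9/FE against 1.54 FPKM in WT/FE.

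The genes whose levels were most like those of a member over the 6 libraries were taken by Pearson's r of log2(FPKM + 1), among 4782 or 4783 genes. With so few libraries r is a description, and the libraries share their depth and their mix of cells. For Mrc1 they were Slc16a9 (r = 0.999), Adamdec1 (r = 0.998) and Lilra5 (r = 0.998), and 810 genes had r over 0.95. For Il12b they were Mfsd2b, Sept8 and Samd14 (each r = 0.999). For Il10 they were Rassf6 (r = 0.999), Txndc5 (r = 0.994) and the immunoglobulin segment Igkv11-125 (r = 0.994), with Txndc5 at 75.8 and 92.6 FPKM in WT and WT/FE and 155 and 152 FPKM in MA9 and MA9/FE macrophages. For Il1b all 3 were immunoglobulin genes, Iglc1, Igkv14-111 and Iglv2 (each r = 0.999), and 1214 genes had r over 0.95. Immunoglobulin segments are near-identical copies, so their single values are uncertain. For Il6 they were Smpdl3b (r = 0.991), Atp7b (r = 0.986) and Slc25a21 (r = 0.984). Tnf had no gene over 0.95, and Mmp25 (r = 0.945), Ighv1-56 (r = 0.935) and F2rl2 (r = 0.929) were nearest. For Tgfb1 they were Gdpd3 (r = 0.992), Rflnb (r = 0.989) and Tnfsf14 (r = 0.982).

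The members lie apart in the genome, on build GRCm38: Tnf at chr17:35199381-35202007 (ENSMUSG00000024401), Mrc1 at chr2:14229392-14332057 (ENSMUSG00000026712), Il12b at chr11:44400063-44414033 (ENSMUSG00000004296) and Il10 at chr1:131019845-131024974 (ENSMUSG00000016529). The exons of 9 of the 10 overlap no other gene. Those of Il1b at chr2:129364570-129371139 (ENSMUSG00000027398) share 25 bases with Il1bos on the opposite strand, out of 1907 exon bases, and the strand setting of the count is not given in the sources used here.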

How the data were processed

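RNA of sorted cells was measured in 6 libraries, 1 per condition, grouped by the labels. The authors deposited FPKM for 54532 genes. The submitters' processing notes name Bowtie2 2.2.5, RSEM and the mouse build mm10, and their settings are not given in the sources used here. FPKM multiplied by GENCODE M21 exon length gave whole reads within 0.05 reads for 96.8% to 97.0% of values above 0, with a depth of 16085346 to 19518359 reads. Each pair was scaled by TMM (coded by hand) and compared on log2(FPKM + 1). A fold of at least 2 was counted without a test where either library of the pair held 10 reads or more. limma 3.58.1 in R 4.3.3 gave the fits over 4 and 6 libraries, with Benjamini-Hochberg adjustment over all genes and a minimum of 10 reads in 2 or more libraries. Intervals are exact Poisson or Clopper-Pearson and cover counting error only. The fits were tested on simulated data. The other steps ran in Python 3.11.15 (numpy 2.4.6, scipy 1.17.1, pandas 2.3.3, and matplotlib 3.10.9 for plots). The members, the lists and the tests were chosen with earlier results of these data known. Genes named from lists are at most 4 per list and comparison, those with a fold of at least 2 and at least 50 reads in the higher library, largest first, with the PCR panel genes at any level. The alternatives were other scalings, pseudocounts and minimum reads, removal of the trend on exon length, leaving out each pair, and, added later, a trend of the spread and scaling to the macrophage marker sum.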

Additional observations from a re-analysis of the deposited data

Results flagged for a closer look

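For 4 members the response to iron had opposite directions in WT and MA9 macrophages. This difference was not tested, since there is 1 library per condition. The log2 fold change in MA9 minus that in WT macrophages was 0.82 for Il1b (-0.38 in WT, 0.44 in MA9) and 0.39 for Tgfb1 (-0.18 in WT, 0.21 in MA9). It was -0.69 for Il6 (0.18 in WT, -0.51 in MA9) and -0.56 for Arg1 (0.19 in WT, -0.37 in MA9). For Il1b and Tgfb1 the counting intervals of both ratios leave out 1. For Il6 and Arg1 those in WT macrophages, on 20 and 25 reads and on 13 and 18 reads, hold 1.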

How the results depend on the processing

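The fit of iron over 3 pairs of libraries was the paired fit, and leaving out each pair in turn gave 0 members each time. No label ties a macrophage library to a leukemia cell library of the same animal, and leaving out 1 of the 4 macrophage libraries leaves no residual degree of freedom. Under the alternatives planned at the start, 49 of 52 log2 fold changes of members kept their direction in each of them. The exceptions, all in MA9/FE against WT/FE macrophages with the length trend removed, were Tnf (-0.15 against 0.09), Il6 (-0.00307 against 0.14) and Tgfb1 (0.02 against -0.01).
With the length trend removed, 0 members had a fold of at least 2 in WT/FE against WT macrophages, 3 (Tnf, Il12b and Mrc1) in MA9/FE against MA9 and 0 in MA9/FE against WT/FE macrophages, beside 1.36%, 2.43% and 4.29% of all genes. In MA9/FE against MA9 macrophages 2 members, Il12b and Mrc1, passed with FPKM as deposited, with the median of ratios and with a pseudocount of 0.1, beside 2.43%, 2.44% and 9.07% of genes, and in MA9 against WT macrophages 4 passed with a pseudocount of 0.1, beside 11.7%. Scaled to the macrophage marker sum, a choice made after the data were seen, 2 members, Tnf and Il1b, passed in WT/FE against WT macrophages, both lower, 3 (Tnf, Il6 and Il12b) in MA9/FE against MA9, all lower, and 0 in MA9/FE against WT/FE, beside 6.44%, 36.8% and 5.21% of genes. That scaling moved the median of all genes to -0.61, -0.86 and -0.23, and 3.90%, 0.379% and 27.8% of the genes that passed were higher, so the direction of the members is that of nearly all genes in the first and second.
In limma, 0 members were called for leukemia with no minimum of reads and with leukemia as the only factor, and 2 with a trend of the spread, under which 1 member was called for iron. The count of genes called for leukemia ranged from 0 with no minimum to 933 with the trend, against 429, and for iron from 0 to 57, against 2.
Genes under about 10 reads, Nos2 and Retnla among them, could not be compared.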
